A study of Mus musculus with 4 samples.

Results

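The fibroblast growth factor (FGF) genes analysed here are 33 of the 33708 autosomal genes measured in the frontonasal prominence (FNP), the embryonic facial tissue from which the nose and snout form. They were chosen by gene name and known role and comprise 17 ligands, 5 receptors, the receptor adaptor Frs2, 7 feedback regulators and 3 transcription factor targets. RNA was sequenced from the FNP of 4 mouse embryos at E10.5 (29 somites), all of the FVB/NJ strain, in 2 genotypes. Wild-type embryos (WT, Smchd1+/+; 1 female and 1 male per the labels) were compared with embryos homozygous for MommeD43 (MD43, Smchd1 MommeD43/MommeD43; 2 males). MommeD43 is an ENU-induced missense allele of Smchd1, present from conception and in every cell, and SMCHD1 is a chromosomal protein with a part in silencing genes. The replicate 2 embryos of both genotypes shared a mother. Elsewhere the study's column names call WT replicate 2 female. The sexes were not checked. By the labels too, sex is unbalanced between the genotypes, and with 1 value per genotype its part cannot be told apart. If the other name holds, WT was all female and MD43 all male. The comparison asked whether the FGF genes of this tissue have other levels when SMCHD1 carries the MD43 change.

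FGF ligands are signalling proteins. Most are secreted, bind heparan sulphate at the cell surface and activate receptor tyrosine kinases, which act through the adaptor FRS2 and the RAS-MAPK cascade. The cascade induces ETV transcription factors as well as Sprouty, Spred, DUSP6 and IL17RD proteins, which restrain the same pathway. In the early face and forebrain, FGF8 from the ectoderm and the anterior neural tube is needed for growth and cell survival.

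A single value was available for each genotype, the log2 RPKM (read density per length of transcript and depth of library), which merges the 2 libraries. No value below therefore carries a spread between embryos, and no difference was tested. Reads given below were recovered from these values and are the geometric mean of the 2 libraries of a genotype. The error given with a difference (MD43 minus WT, log2) is the smallest that read counting allows, and does not include variation between embryos. The implied depth was 16055882 reads per library in WT and 22328791 in MD43, so equal levels give 1.39 times as many reads in MD43. Smchd1 itself had a level of 3.31 log2 RPKM in WT and 3.30 in MD43, from 3185 and 4390 reads. A missense allele need not alter the transcript level, so this does not check the genotype labels.

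The FGF genes were, more often than not, at lower levels in MD43, with the lowest values relative to WT those of Fgf15 and Fgf11. The class of 17 ligands counts Fgf11, Fgf12 and Fgf14, which belong to the family but remain inside the cell. Of the 33 genes, 28 had at least 10 reads in a genotype and were used for counts and medians. MD43 had the lower value for 20 of the 28 (71.4%), against 48.8% of all 15377 genes with as many reads. The median difference of the 28 genes was -0.19 (-0.12 with 1 RPKM added to each value before the log), and that of the 15377 genes was 0.01. A level at least 2-fold lower was found for 2 of the 28, Fgf15 and Fgf11, against a background of 2.47% of all genes. No FGF gene was at least 2-fold higher, against a background of 1.64%. At 1.5-fold, 6 of the 28 were lower (background 6.43%) and 0 were higher (background 4.24%). Those 6 were Fgf15, Fgf11, Fgf18, Fgf17, Fgfr3 and Spry1. Differences beyond 2 of the smallest counting errors were found for 15 lower genes (background 23.8%) and 5 higher genes (background 25.8%). In whole tissue, fewer cells of a type and less RNA per cell cannot be told apart.

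**Figure D1:**
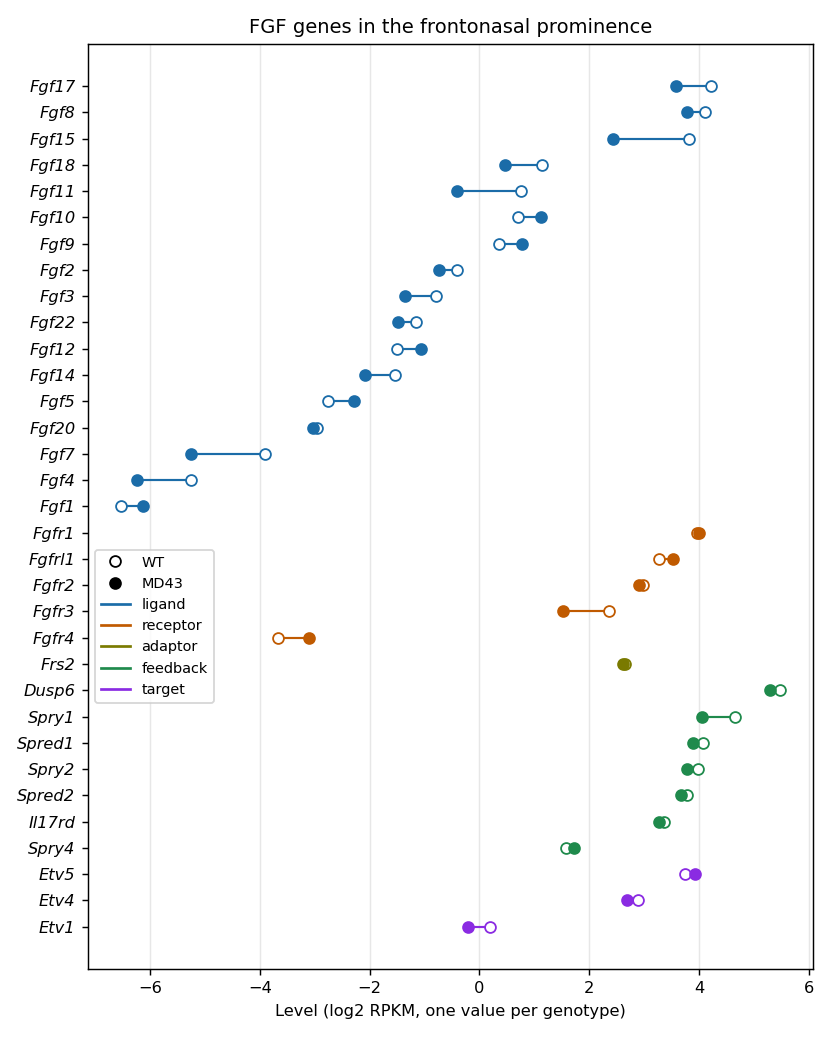
Level of the 33 FGF genes on the log2 RPKM axis, with 1 open point for WT and 1 filled point for MD43 per gene, joined by a line and coloured by role. Dusp6 stood highest at 5.48 and 5.30, and the widest gap among the well-covered genes was that of Fgf15, from 3.82 to 2.43.

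RefSeq promoters (GRCm38.p6, 250 bases before to 50 after a transcript start) were at hand for 25 of the 33 genes, 31 promoters in all. Fgf1, Fgf8, Fgf15, Fgf17, Fgf20, Fgfr1, Etv4 and Spry4 had none. The promoters of the 4 covered genes among the 6 that were at least 1.5-fold lower are printed here because these genes share a direction, with CpG dinucleotides, the sites of DNA methylation, in capitals. For Fgfr3, which has 2 promoters in RefSeq, the upstream one is printed.
Fgf11, chr11:69802231-69802530, minus strand: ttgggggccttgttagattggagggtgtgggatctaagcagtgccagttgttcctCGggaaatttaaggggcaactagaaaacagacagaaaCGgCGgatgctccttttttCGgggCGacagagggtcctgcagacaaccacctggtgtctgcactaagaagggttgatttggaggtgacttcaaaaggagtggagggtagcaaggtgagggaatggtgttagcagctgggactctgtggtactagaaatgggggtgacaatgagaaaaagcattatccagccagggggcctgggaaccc
Fgf18, chr11:33147351-33147650, minus strand: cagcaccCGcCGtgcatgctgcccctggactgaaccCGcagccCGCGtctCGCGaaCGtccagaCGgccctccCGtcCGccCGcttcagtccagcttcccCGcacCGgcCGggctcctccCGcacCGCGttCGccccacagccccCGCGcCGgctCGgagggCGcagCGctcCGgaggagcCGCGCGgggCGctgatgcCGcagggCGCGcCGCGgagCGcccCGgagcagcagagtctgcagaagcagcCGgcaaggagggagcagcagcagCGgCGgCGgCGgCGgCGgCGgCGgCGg
Fgfr3, chr5:33721474-33721773, plus strand: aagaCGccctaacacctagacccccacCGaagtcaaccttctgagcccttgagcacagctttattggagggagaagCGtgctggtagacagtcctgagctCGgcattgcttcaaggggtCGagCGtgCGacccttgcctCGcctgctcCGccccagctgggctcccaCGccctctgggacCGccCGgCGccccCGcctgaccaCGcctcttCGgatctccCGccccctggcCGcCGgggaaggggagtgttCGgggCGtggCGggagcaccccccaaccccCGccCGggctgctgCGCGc
Spry1, chr3:37639697-37639996, plus strand: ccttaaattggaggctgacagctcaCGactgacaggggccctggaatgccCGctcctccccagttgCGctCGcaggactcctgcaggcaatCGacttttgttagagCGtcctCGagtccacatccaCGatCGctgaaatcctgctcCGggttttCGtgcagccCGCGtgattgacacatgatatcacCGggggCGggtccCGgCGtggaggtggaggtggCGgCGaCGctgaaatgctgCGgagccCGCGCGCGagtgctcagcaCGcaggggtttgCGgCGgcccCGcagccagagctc
These 4 promoters differed widely in base composition. Fgf11 held 5 CpG in 300 bases (52.3% G or C), Fgfr3 held 26 (69.7%), Spry1 held 29 (64.3%) and Fgf18 held 47 (78.7%). The Fgf11 window lies wholly upstream of the gene as annotated for its level, which starts at 69801857 on the minus strand. The other 3 windows span the annotated starts of their genes. The CpG count of Fgf11 may thus not describe the start of the gene that was measured. The median was 20 CpG over the 31 FGF promoters and 7 over 31396 autosomal promoters, so Fgf11 lay below the common value and the other 3 above it. The core motif of ETS factors, the family of ETV1, ETV4 and ETV5, was searched on both strands as CCGGAA and its reverse complement TTCCGG, which can overlap each other. It was in 6 of the 31 FGF promoters (19.4%) and in 15.1% of all 31396, and in none of the 4 printed. The 6 were those of Fgf5, Fgfrl1, Frs2, Fgfr4, Spry2 and an Fgf12 start.

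Among the secreted ligands, those of the FGF8 subfamily (Fgf8, Fgf17 and Fgf18) and Fgf15 carried most of the ligand RNA. Fgf8, the main FGF of the nasal pits and the anterior neural ridge, was at 4.11 log2 RPKM in WT and 3.78 in MD43, from 375 and 413 reads. The difference was -0.34 ± 0.07 (counting SE), a value 1.26-fold lower in MD43. Fgf17, a close relative expressed at the same forebrain border, was at 4.22 and 3.58 log2 RPKM, from 504 and 451 reads. Its difference of -0.64 ± 0.07 was 1.55-fold, wider than that of Fgf8. Fgf18, which acts in skeletal growth, was much lower in level, at 1.14 and 0.47 log2 RPKM from 41.9 and 36.7 reads, a difference of -0.67 ± 0.23. All 3 genes of the subfamily thus had the lower value in MD43, with a median of -0.64.

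Fgf15 had the lowest MD43 value relative to WT of the 28 genes. It is the mouse counterpart of human FGF19, acts as a hormone of the gut in adults, and in the embryo is transcribed in the neural tube, the diencephalon included. Its level was 3.82 log2 RPKM in WT and 2.43 in MD43, from 695 and 369 reads. The difference was -1.39 ± 0.07, or 2.62-fold lower. It made up 24.7% of the summed RPKM of the 14 secreted ligands in WT and 14.2% in MD43. The share of Fgf8 was 30.2% in WT and 36.0% in MD43, although its own level was lower in MD43. Shares are relative, so a gene lowered less than the sum gains share. The share of Fgf17 was 32.4% and 31.4%. The 14 secreted ligands summed to 57.3 RPKM in WT and 38.1 in MD43. Fgf8, Fgf15 and Fgf17 together accounted for 50.04 and 31.1 of this, while the other 11 summed to 7.27 and 7.01. The gap in the sum therefore lay in these 3 genes.

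The ligands with higher values in MD43 were of low or middle level. Fgf10, a mesenchymal ligand that signals to epithelia, was at 0.70 log2 RPKM in WT and 1.12 in MD43, from 120 and 223 reads, a difference of 0.42 ± 0.12. Fgf9, a ligand of epithelia and neurons, was at 0.36 and 0.78 log2 RPKM from 95.7 and 179 reads, also a difference of 0.42 ± 0.13. These are differences of over 3 counting errors but of under 1.5-fold. Fgf5, known for ending hair growth, had 5.92 and 11.5 reads, levels of -2.76 and -2.28 log2 RPKM and a difference of 0.48 ± 0.52, within its counting error.

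The remaining secreted ligands had lower values in MD43 or too few reads. Fgf2, a ligand without a signal peptide, was at -0.42 and -0.73 log2 RPKM from 81.7 and 91.2 reads, with a difference of -0.32 ± 0.16. Fgf3, which takes part in inner ear formation, was at -0.79 and -1.35 from 21.6 and 20.4 reads, a difference of -0.56 ± 0.31. Fgf22, of the same subfamily as Fgf10, was at -1.15 and -1.48 from 16.2 and 17.97 reads, a difference of -0.33 ± 0.35. The differences of these 3 genes were near or under 2 counting errors. Fgf1, Fgf4, Fgf7 and Fgf20 each had under 10 reads in both genotypes. Their reads were 0.949 in WT and 1.73 in MD43 for Fgf1, 1.34 and 0.949 for Fgf4, 3.46 and 1.90 for Fgf7, and 3.46 and 4.58 for Fgf20. No direction was read from these 4 ligands.

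Of the FGF homologous factors, which remain inside the cell and bind sodium channels rather than act through FGF receptors, Fgf11 stood apart. Its level was 0.76 log2 RPKM in WT and -0.40 in MD43, from 82.7 and 51.4 reads. The difference was -1.16 ± 0.18, or 2.24-fold lower, and -0.62, short of 2-fold, with 1 RPKM added to each value. Fgf14 was at -1.53 and -2.08 log2 RPKM from 23.2 and 22.0 reads, with a difference of -0.55 ± 0.30. Fgf12 lay the other way, at -1.50 and -1.07 from 35.1 and 66.1 reads, with a difference of 0.44 ± 0.21. The 3 genes of this subfamily therefore did not share a direction. Over the 13 ligands used, with these 3 genes counted among them, 9 had the lower value in MD43 (background 48.8%). The other 4 had the higher value, and the median was -0.34. With 1 RPKM added, which compresses genes of low level, this median was -0.13.

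**Figure D2:**
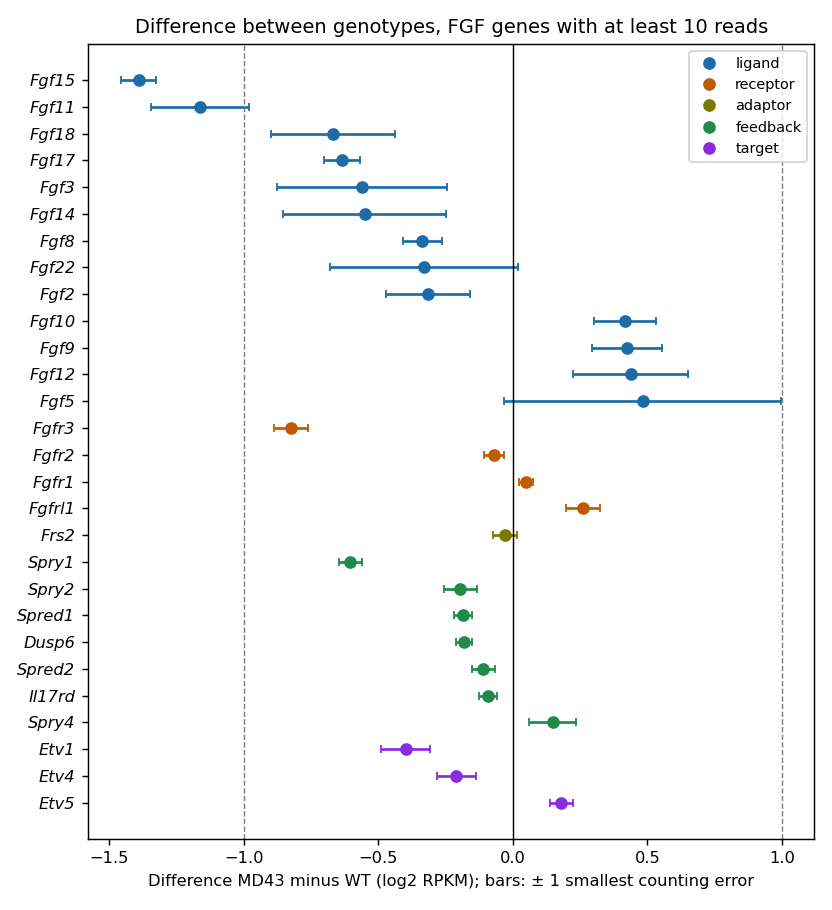
Difference between genotypes (MD43 minus WT, log2 RPKM) of the 28 FGF genes that passed the minimum of 10 reads, with bars of 1 smallest counting error to each side, coloured by role. The dashed lines mark 2-fold, and Fgf15 at -1.39 and Fgf11 at -1.16 lie past it, while no gene lies past 2-fold higher.

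Among the receptors, the lower value of Fgfr3 stood apart from near-equal Fgfr1 and Fgfr2. Fgfr1, the main FGF receptor of facial mesenchyme, was at 3.955 log2 RPKM in WT and 4.004 in MD43, from 2459 and 3537 reads, a difference of 0.05 ± 0.03. Fgfr2, whose epithelial form receives FGF10, was at 2.97 and 2.90 from 1300 and 1722 reads, a difference of -0.07 ± 0.04. Fgfr3, which is expressed in neural progenitors and cartilage, was at 2.36 and 1.53 from 589 and 462 reads. Its difference of -0.83 ± 0.06 was 1.77-fold. As a share of the summed RPKM of the 4 receptor kinases, Fgfr3 was 17.9% in WT and 10.9% in MD43, and Fgfr1 was 54.3% and 60.5%. Fgfr4 had 4.47 and 9.17 reads, under 10 in both genotypes. Fgfrl1, which lacks the kinase domain, was at 3.27 and 3.53 log2 RPKM from 432 and 719 reads, a difference of 0.26 ± 0.06. Frs2, the adaptor docked to the receptors, was at 2.65 and 2.62 from 882 and 1203 reads, a difference of -0.03 ± 0.05. The 5 receptor and adaptor genes used had a median of -0.03, which changed sign with the processing (0.04 after a correction for GC content and length).

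The feedback genes, whose transcripts follow FGF signalling, were mostly slightly lower in MD43. Dusp6, a phosphatase of ERK, was the FGF gene of highest level, at 5.48 log2 RPKM (44.6 RPKM) in WT and 5.30 (39.3 RPKM) in MD43, a difference of -0.18 ± 0.03. Spry1, a Sprouty inhibitor of receptor signalling, had the widest difference of the 7, at 4.66 and 4.05 log2 RPKM from 1179 and 1078 reads. That difference of -0.60 ± 0.04 was 1.52-fold. Its relatives lay closer to 0. Spry2 was at 3.97 and 3.78 log2 RPKM (-0.19 ± 0.06) and Spry4 at 1.57 and 1.72 (0.15 ± 0.09). Spred1 and Spred2, which hold back RAF activation, had levels of 4.07 and 3.89 (-0.19 ± 0.03) and of 3.78 and 3.67 (-0.11 ± 0.04). Il17rd, a membrane inhibitor, was at 3.36 and 3.27 (-0.09 ± 0.03). Of the 7 feedback genes, 6 had the lower value in MD43, with a median of -0.18.

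The ETV factors, transcribed in response to FGF, did not share a direction. Etv1 was at 0.18 log2 RPKM in WT and -0.21 in MD43, a difference of -0.40 ± 0.09. Etv4 was at 2.89 and 2.68, a difference of -0.21 ± 0.07. Etv5 was at 3.74 and 3.93, with the higher value in MD43 by 0.18 ± 0.04. Together with the 7 feedback genes, 8 of 10 had the lower value (background 48.8%), and the median was -0.18.

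**Figure D3:**
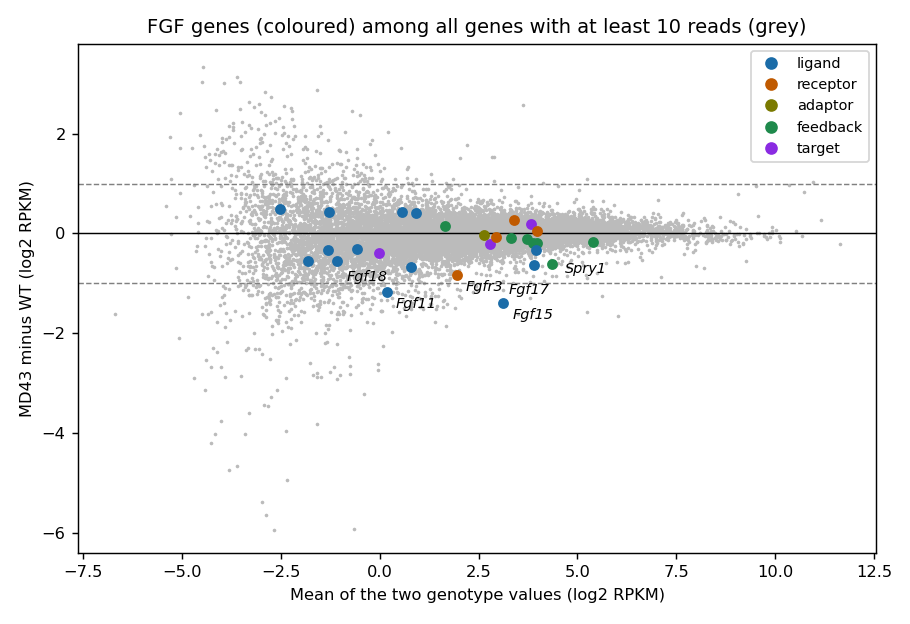
Difference between genotypes (MD43 minus WT, log2 RPKM) against the mean of both genotype values for 15377 genes (grey) and the 28 FGF genes (coloured by role), with dashed lines at 2-fold. The 6 labelled FGF genes are those at least 1.5-fold lower in MD43, and at these levels most grey points lie closer to 0 than Fgf15 and Fgf11.

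A smallest possible ratio of raw reads between the 2 libraries of a genotype could be drawn from the values. The product of the reads of the 2 libraries is a whole number, and the pair of whole factors closest to each other gives the smallest possible ratio between the libraries. Such pairs are raw reads, not scaled to the depth of each library, and the embryo behind each count is unknown. For Fgf15 the closest pair was 519 and 931 reads in WT and 323 and 421 in MD43. Both MD43 counts then lay under both WT counts, although MD43 was the deeper set. With the other WT pair within 4-fold, 399 and 1211, the counts of the genotypes overlapped. The MD43 pair was the sole one within 4-fold. The closest pair is the split with the least spread, and the genes given here were picked for their lower MD43 values. How many of all genes have closest pairs that do not overlap was not counted. Nothing is therefore concluded from a lack of overlap.

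The other genes that were at least 1.5-fold lower differed in whether their counts overlapped. The same limits hold for them, so nothing is concluded from pairs that lay apart. Fgf11 had closest pairs of 67 and 102 in WT and 48 and 55 in MD43, which did not overlap, but the next pairs, 51 and 134 against 44 and 60, did. Fgfr3 had closest pairs of 558 and 621 against 426 and 501, also apart, while the next pairs, 486 and 713 against 334 and 639, overlapped. The closest pairs of Fgf17, 492 and 516 against 387 and 526, overlapped in raw reads. For Fgf18, both MD43 counts of the closest pair (32 and 42) lay between the WT counts of 24 and 73, a WT pair at least 3.04-fold apart. The lower Fgf18 level thus rests on WT libraries whose raw reads differed by more than the genotype levels did. The product of Spry1 was too large to be split.

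Fgf14 had the widest split of all, with WT counts at least 4.45-fold apart (11 and 49 at the closest) and an MD43 pair of 18 and 27 between them. In WT, 2 of 18 FGF genes with a product of 100 to 500000 were at least 3-fold apart, against 1.48% of 9432 such genes, and in MD43 0 of 18, against 0.999% of 8606. The WT counts of Etv4 were at least 2.00-fold apart (262 and 524) and those of Fgf2 at least 1.92-fold (59 and 113). Within the same limits on the product, the widest MD43 pair was that of Spry4, at least 1.82-fold (259 and 471). A library without reads was found for Fgf1 and Fgf4 in WT and for Fgf4 and Fgf7 in MD43.

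Fgf15 (ENSMUSG00000031073) lies on chromosome 7, 144896531 to 144900953, plus strand (GRCm38), next to Fgf3 and Fgf4. The antisense gene Gm26793 shares 761 bases of exon with it on the opposite strand, or 24.9% of the 3058 exon bases of Fgf15. Gm26793 was at 2.02 log2 RPKM in WT and 0.77 in MD43, from 178 and 104 reads, a difference of -1.25 ± 0.13. Whether counting used the strand is not given in the sources used here, so reads of Fgf15 and Gm26793 may not be told apart. Of 12 genes within 250 kb, 7 had enough reads, 4 had the lower value in MD43 and Gm26793 alone was at least 2-fold lower. Ano1, a chloride channel gene, was at -0.19, LTO1 at 0.15 and Ccnd1, a cell cycle gene, at 0.24. Bc1, 13.5 kb downstream, had the higher value in MD43, at 0.93 ± 0.26 from 22.0 and 58.3 reads. Fgf3 was at -0.56 ± 0.31, and Gm39119, which shares 26 exon bases with Fgf15, at -0.65 ± 0.34. The neighbours thus lay to both sides of 0.

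**Figure D4:**
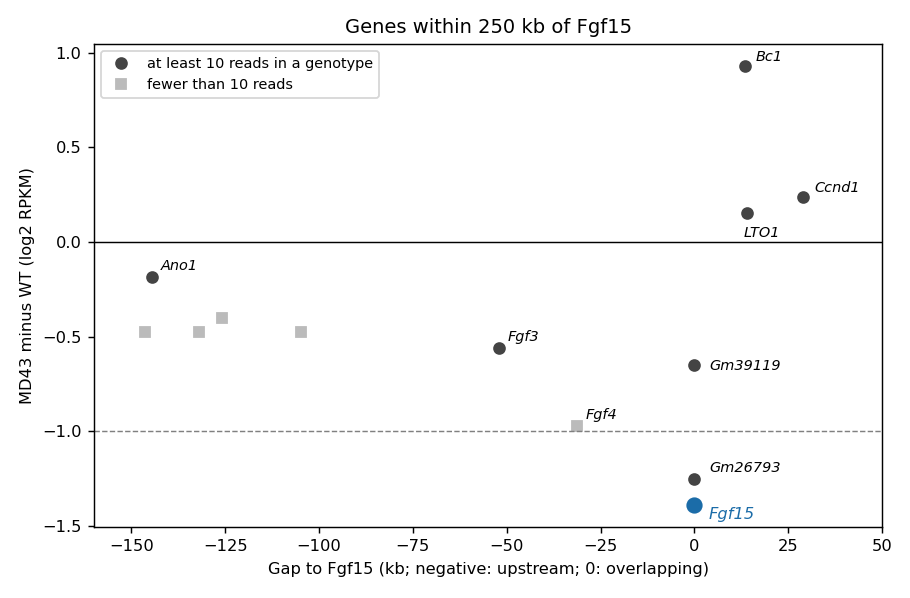
Difference between genotypes (MD43 minus WT, log2 RPKM) of Fgf15 and the genes within 250 kb, against the gap to Fgf15 in kb, with squares for genes under 10 reads. Fgf15 at -1.39 and the overlapping Gm26793 at -1.25 lie under the dashed 2-fold line, and the other neighbours with enough reads range from -0.65 (Gm39119) to 0.93 (Bc1).

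Fgf11 (ENSMUSG00000042826) lies on chromosome 11, 69796068 to 69801857, minus strand, in a gene-dense region. Of 46 genes within 250 kb, 38 had enough reads, 17 had the lower value in MD43 and 0 were past 2-fold either way, with a median of 0.05. Among them were genes over 1.5-fold lower, Zbtb4 at -0.67 ± 0.16 and Atp1b2 at -0.74 ± 0.15, and genes over 1.5-fold higher, Tnk1 at 0.68 ± 0.16 and Cldn7 at 0.87 ± 0.09. Exon bases of 7 FGF genes, Fgf15 included, are also covered by a gene with enough reads on the opposite strand. For Spry1 this is Gm42922 (710 bases, 24.4% of its exons), at a difference of -0.29 ± 0.23. For Fgfr3 it is G630022F23Rik (998 bases, 13.9%), at 0.34 ± 0.35, the opposite direction to Fgfr3.

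The rest of the pathway had values to both sides of 0. Of 54 other pathway genes, 46 had enough reads, with 25 lower and 21 higher in MD43 and a median of -0.03 (0.02 after the correction for GC content and length). For co-receptors and heparan sulphate genes, 11 of 19 were lower (median -0.03), and at over 50 reads the widest differences were those of Flrt3, an FGF receptor partner (-0.52), Sdc2, a syndecan (-0.34), and Gpc1, a glypican (0.32). Fgfbp1, which releases FGFs from the matrix, was at least 2-fold higher in MD43, at 1.48 ± 0.48 from 5.66 and 21.9 reads. In the RAS-MAPK cascade, 12 of 20 were lower (median -0.04) and none was past 1.5-fold, with Map2k1, which encodes the kinase MEK1, at -0.43, the phosphatase Ptpn11 at 0.28 and Hras at 0.20. Of 7 other feedback and response genes, 2 were lower (median 0.14). Egr1, an immediate early gene, was at -1.06 ± 0.21 from 60.4 and 40.2 reads. Ccnd1 was at 0.24 and Dusp7, an ERK phosphatase, at 0.15. Of the other ligands, Fgf6, Fgf21 and Fgf23 had at most 3 reads.

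Markers of cell types within or beside the FNP also differed between the genotypes. The marker lists were chosen with earlier results of these data known, so their counts are no independent support. All 10 markers of the diencephalon and optic vesicle, forebrain regions where Fgf15 is known to be transcribed, had the lower value in MD43. The share over all 15377 genes with at least 10 reads was 48.8%. The 10 markers had a median of -1.04 and ranged from -2.17 (Rax) to -0.02 (Six6). Their summed level was 42.7 RPKM in WT and 29.5 in MD43. The median was -0.45 over those with at least 50 reads, and -0.34 with 1 RPKM added to each value. Telencephalon markers had a median of 0.25 (2 lower, 4 higher), with sums of 107 and 131 RPKM. Neural progenitor markers had a median of -0.23 (5 lower, 2 higher), with sums of 332 and 291 RPKM, and young neuron markers a median of -0.08. The part of cell composition in the lower Fgf15, Fgf17 and Fgfr3 values was not tested.

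Of the surface ectoderm markers, 8 of 9 were higher in MD43 (median 0.61), with sums of 124 and 192 RPKM. The share of higher values over all genes with at least 10 reads was 51.2%. Facial mesenchyme markers were expressed at sums of 165 and 162 RPKM, with a median of -0.17 (5 lower, 4 higher). No other tissue was compared, so these levels do not check the labelled tissue. All 6 red blood cell markers were higher in MD43 (median 0.94), with sums of 3059 and 5817 RPKM. Endothelium markers had a median of -0.08 (5 lower, 1 higher). Of 8 pharyngeal arch markers, 6 had enough reads (3 lower, 3 higher, median -0.52, and -0.16 with 1 RPKM added), and Hand1 and Hand2 had at most 3 reads. All 3 lower markers were past 2-fold (background 2.47%), Lhx8 at -1.98, Lhx6 at -1.55 and Barx1 at -1.30. Of the 3 higher markers, 1 was past 2-fold (background 1.64%), Gsc at 1.32. The part of these tissues in the FGF values was not tested.

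**Figure D5:**
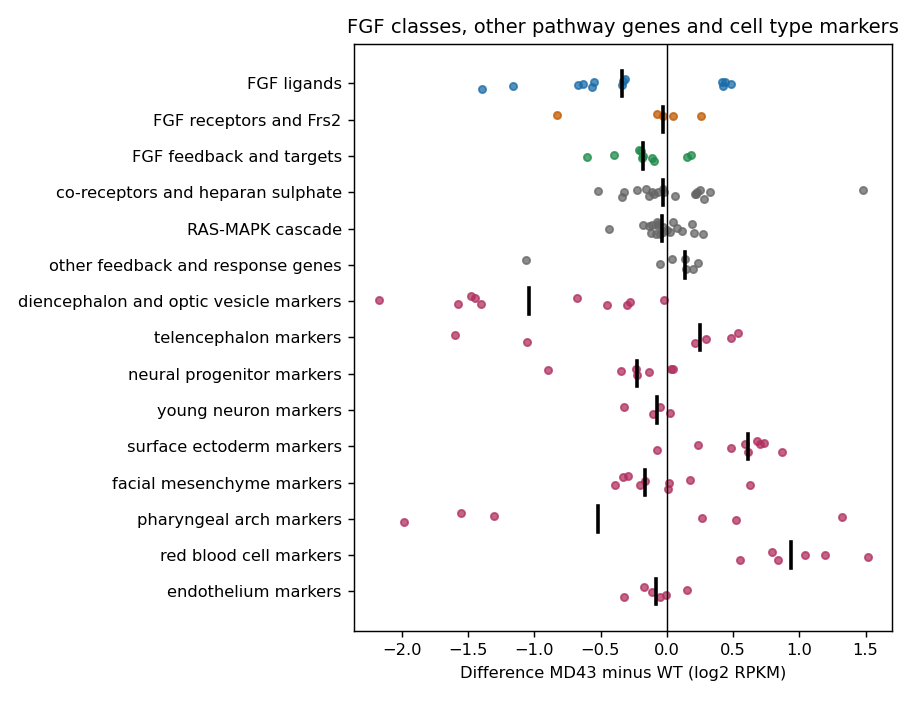
Difference between genotypes (MD43 minus WT, log2 RPKM) of single genes (points) in the FGF classes, other pathway lists and cell type marker lists, with a black bar at each median. The ligand median lies at -0.34, that of diencephalon and optic vesicle markers at -1.04 (-0.45 over those with at least 50 reads) and that of red blood cell markers at 0.94.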

How the data were processed

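RNA from 4 FNP samples was made into stranded mRNA libraries from 100 ng of total RNA. The authors trimmed the reads with Trim Galore (0.4.4), mapped them with HISAT2 (2.0.5) to GRCm38.p6 and quantified them in SeqMonk. The deposited table holds log2 RPKM values on 19 autosomes, scaled by the authors to library size and exon length, with the 2 libraries of a genotype merged into 1 column. Sex chromosomes were not analysed here. The columns of the authors' own comparison (a p-value adjusted as FDR for genes under a threshold, a log2 fold change and a mean) were not used.

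The table was joined to GENCODE M21, and 33101 rows matched. The most frequent difference, -0.4758, was shared by 12862 rows, taken as genes without reads. Counting a library without reads as 0.9 reads, each value's distance from this constant gave the product of the reads of both libraries, of which 99.9% under 1000 were whole or 0.9 times a whole number (within 0.01; within 0.2 for larger products up to 500000). The recovery was tested on simulated data. The smallest counting error is that of the geometric-mean reads. A gene was used if either genotype had 10 reads or more, and a gene counted as lower or higher by the sign of its difference, or past a fold where a fold is given. No filter was placed on the named FGF genes, which are all 33. Other pathway genes named are the 3 of each list with the widest difference among those with at least 50 reads, and Fgfbp1 for its difference past 2-fold. Spred3 and Dusp4 are named as further feedback genes. Ier2 could not be matched, and Fgf13 and Fgf16 were not analysed here. A count test had been planned, but the merged values used here allow none. Alternatives were pseudocounts of 0.1 and 1 RPKM, centring, no filter or 50 reads, a correction for GC content and length, and 1.5-fold. The members, lists and closest-pair analysis were chosen with earlier results of these data known. Python 3.11.15, numpy 2.4.6, pandas 2.3.3 and matplotlib 3.10.9 were used.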

Additional observations from a re-analysis of the deposited data

How the results depend on the processing

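The median of the FGF receptors and Frs2, -0.03, changed sign to 0.04 after the correction for GC content and length and to 0.01 without a filter, and that of the other pathway genes, -0.03, to 0.02 after that correction. With a pseudocount of 1 RPKM the ligand median was -0.13, that of all FGF genes -0.12 and that of the pharyngeal arch markers -0.16 (-0.19 without a filter). After the correction the young neuron median was -0.04. The median of the diencephalon and optic vesicle markers was -0.70 with a pseudocount of 0.1 RPKM, -0.34 with 1 RPKM and -0.45 with at least 50 reads. That of the red blood cell markers was 0.84 with 1 RPKM. Over all genes, 632 were past 2-fold, against 306 and 40 with pseudocounts of 0.1 and 1 RPKM, 158 with at least 50 reads, 2136 without a filter and 1641 at 1.5-fold. Of the FGF genes, 2 were past 2-fold, 1 with a pseudocount of 1 RPKM (Fgf15) and 6 at 1.5-fold. With that pseudocount Fgf11 was at -0.62 and Fgf15 at -1.24. Of 112 single FGF gene values under 4 alternatives, 5 moved by over 2 counting errors, and Frs2 alone changed sign, to 0.04 after the correction for GC content and length. A pseudocount compresses low values by construction, and the cause of the other changes was not tested.

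No paired analysis was possible because the 2 libraries of a genotype are merged in the table, and leaving out a replicate was not run for the same reason. Whether an FGF difference exceeds the spread between the 2 embryos of a genotype was not tested here, since the table analysed has no values per embryo. Intervals and errors cover counting alone, and genes under 10 reads allow no direction.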
